A study of Mus musculus with 6 samples.

Results

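The genes described here encode the Rab small GTPases, the proteins that mark and direct membrane compartments. They were taken as every gene whose symbol in the array's probe table is Rab followed by digits and at most one letter, with no second symbol on the probe set. Each gene was read at the probe set with the highest mean over the 6 arrays. This gave 59 genes among 18193 named by a single symbol, and 44 of them lay above the filter on dim probe sets and were tested among 10824 genes. The symbol rule used no measured difference, although it was chosen with earlier results of these data known.

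The arrays measured LSK cells, the lineage-negative, Sca-1-positive and c-Kit-positive fraction of bone marrow, from 3 adult mice (278, 279 and 281). Every mouse had the genotype Mx1Cre;Ergkd/+;R26Y on a mixed 129-B6 background, so both groups carry the Cre transgene, the Erg knockdown allele and the yellow fluorescent protein (YFP) reporter. The YFP-positive cells of each mouse are labelled Erg-restored, to the wild type level, and the YFP-negative cells Erg-knockdown, with about 40% less Erg. The Mx1 promoter responds to interferon and is not limited to blood cells, and the sort followed the reporter, so the labelled Erg dose and Cre action cannot be told apart. The question of the series was which genes differ between the 2 populations, each hybridized on 3 arrays.

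Rab proteins switch between a GTP-bound form, which recruits effectors such as tethers and motors to a membrane, and a GDP-bound form. Exchange factors (GEFs) turn them on and GTPase-activating proteins (GAPs) turn them off. A lipid anchor added by the Rab geranylgeranyl transferase holds them in the membrane, and GDP dissociation inhibitors (GDIs) carry them between membranes. In blood cells they are best known for the release of granules, for the uptake and recycling of surface receptors and for the traffic to lysosomes.

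Array means lay between 1034 and 1075 and array medians between 135 and 157, in the scaled intensity units of the deposited table. For Erg, the brighter probe set averaged 2764 ± 124 (SD, n = 3) under the restored label and 2809.9 ± 140.5 (SD, n = 3) under the knockdown label. In the fit over all probe sets above the filter, the 95% interval of the log2 difference of 0.024 ran from -0.23 to 0.27. The dimmer Erg probe set averaged 1696 against 1573.5 and was lower under the knockdown label in each mouse (-0.031, -0.21 and -0.10), a log2 difference of -0.11 with an interval from -0.36 to 0.13. Neither probe set passed the test (limma, adjusted p of 0.954 and 0.818 over all probe sets above the filter). The intervals reach down to -0.23 and -0.36 only. Read as a loss of RNA, the drop in Erg given above for the knockdown label is larger than either, so these arrays do not show it. Erg protein was not measured here, and the groups are named by their labels below. Of 10 LSK and stem cell markers, 8 had a named probe set, and Ly6a, which encodes Sca-1, was not among them. Their summed intensity was 39157 to 39353 in the restored-labelled and 40816 to 43531 in the knockdown-labelled cells. Markers of B and plasma cells moved with the groups: 7 of 8 tested were higher in the knockdown-labelled cells, 5 of the 8 had an unadjusted p below 0.05 in limma, and the summed intensity of 11 was 13003 to 13689.6 against 19594 to 28441. Irf4, 1 of the 5, passed the filter only through the knockdown-labelled arrays, with 78.1, 71.6 and 106 against 788, 744 and 213. Its direction was thus fixed by the filter and adds nothing to these counts. Pax5 was below the filter on every array. Of 8 tested platelet markers 7 were lower, and 4 of the 8 had an unadjusted p below 0.05 in limma. The sums of 10 were 10050.0 to 13345 against 9252 to 10375. Their part in the results below was not tested, and fewer cells of a type cannot be told apart from less RNA per cell. The restored-labelled array of mouse 279 had the highest 3' over 5' signal of the control transcripts, a log2 ratio of 0.71 against 0.47 to 0.54 on the other 5 arrays.

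No Rab gene passed the test between the populations. Across all 10824 genes, 0% passed an adjusted p of 0.05 in limma with Benjamini-Hochberg adjustment, and 0 of 44 Rab genes did, with adjusted p-values of 0.771 to 0.995. At an unadjusted p below 0.05 stood 2 of the 44, Rab19 on the higher side, where 3.96% of all genes were called, and Rab40c on the lower side, where 1.88% were called. Both directions together held 5.84% of all genes, so the Rab share of 4.55% was near the background. The differences of the 44 genes ran from -0.36 to 0.44 on the log2(intensity + 16) scale, knockdown-labelled minus restored-labelled, with a median of 0.024 beside -0.00015 for all genes tested. The medians in mice 278, 279 and 281 were 0.050, 0.039 and -0.041.

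The 95% interval of the paired fit lay within 1.5-fold either way for 34 of 44 Rab genes, beside 74.9% of all genes, and within 2-fold for 40, beside 93.8%. The 4 genes with wider intervals were Rab7b, Rab27a, Rab27b and Rab44. Above 0 lay 24 of the 44 genes, beside 50% of all genes. Centring the arrays at a common median shifted the median difference of all genes to -0.11 and that of the Rab genes to -0.083. Centring subtracts the same value from every gene of an array, so an equal shift of all genes was fixed in advance. The sign was shared by all 3 mice in 16 Rab genes, with 10 higher (19.8% of all genes) and 6 lower (12.4%). With no replicate block 1 gene stood below the unadjusted p of 0.05 in place of 2.

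**Figure D1:**
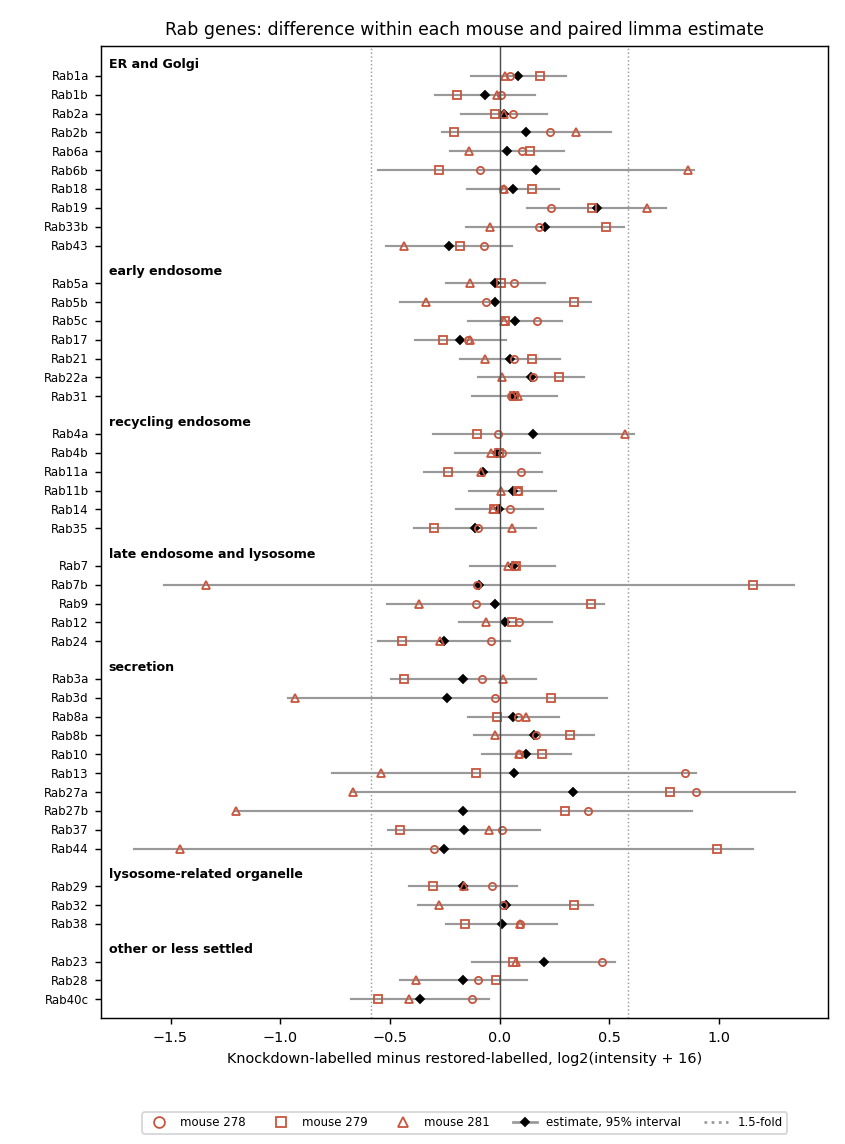
Knockdown-labelled minus restored-labelled difference of the 44 tested Rab genes on the log2(intensity + 16) scale, grouped by trafficking role. Open symbols are the 3 mice, diamonds the limma estimate with its 95% interval, and dotted lines mark 1.5-fold; the interval of Rab19 lies above 0 and that of Rab40c below 0, while those of Rab7b, Rab27a, Rab27b and Rab44 are the widest and reach past 2-fold.

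A count without any model took the genes whose 3 knockdown-labelled arrays all lay on one side of the 3 restored-labelled arrays. There were 10 such Rab genes among 44. The higher side held 7 (10.1% of all genes) and the lower side 3 (5.08%). The higher genes were Rab1a, Rab5c, Rab7, Rab10, Rab11b, Rab19 and Rab31, and the lower genes Rab24, Rab28 and Rab29. With centred arrays, where 1.58% of all genes were higher without overlap, only Rab19 among these 7 still was. The estimates of Rab5c, Rab7, Rab11b and Rab31 then turned to between -0.047 and -0.036 and that of Rab1a to -0.020. Rab19, Rab24 and Rab29 stayed without overlap both with centred arrays and after quantile normalization. Leaving out an array cannot make groups overlap, so the 5 arrays that lacked restored-labelled mouse 279 gave no check of this.

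Rab genes of the endoplasmic reticulum and Golgi were mostly well above the filter, and 1 of 10 tested had an unadjusted p below 0.05. That gene was Rab19, a Golgi-associated Rab. Its intensity was 320.2, 304 and 303 in the restored-labelled cells of mice 278, 279 and 281 and 379.6, 413 and 492 in the knockdown-labelled cells. The groups did not overlap, and the knockdown-labelled array was the higher one in every mouse. The log2 difference was 0.44 ± 0.11 (SE), or 1.36-fold (unadjusted p = 0.0176, adjusted p = 0.771, limma). Dropping the mouse 279 array of the restored label, and with it the mouse term, gave 0.43. Leaving out a whole mouse gave 0.33 to 0.55, with an unadjusted p of 0.0335 to 0.0636, and centring gave 0.34 and quantile normalization 0.36, with unadjusted p-values of 0.0585 and 0.0596 (limma).

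Rab43, which acts in traffic through the Golgi, read 1671, 2082 and 1795 against 1590.4, 1835 and 1324. It was lower in each mouse, with a difference of -0.23 ± 0.10 and groups that overlapped. The other Rab43 probe set above the filter gave 0.082 ± 0.20, with the mice going both ways. Rab33b, a Golgi Rab that also binds the autophagy protein ATG16L1, read 1968.5, 1687 and 2127 against 2235, 2371 and 2063, a difference of 0.21 ± 0.13 that came from mice 278 and 279. Rab1a and Rab1b drive transport from the endoplasmic reticulum to the Golgi. Rab1a read 6869, 6499 and 6918 against 7102, 7389 and 7047 (0.086 ± 0.077), so the groups did not overlap although the gap between them was small. Rab1b read 2433, 2835 and 2415.5 against 2448, 2480.3 and 2393 (-0.066 ± 0.082), with the restored-labelled array of mouse 279 apart from the other 5. Of the 10 genes 8 lay above 0, and their median difference was 0.073.

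Early endosome Rabs differed by -0.18 to 0.14 between the populations. RAB5 is the organizer of early endosomes and recruits tethers such as EEA1. Rab5a read 2843, 3197 and 2998 in the restored-labelled and 2982, 3212 and 2728 in the knockdown-labelled cells, a difference of -0.020 ± 0.081. Rab5c read 4554, 4575 and 4611 against 5128, 4649 and 4669.8 (0.071 ± 0.078), and the array of mouse 278 alone accounts for most of the difference. Rab31, which works between the trans-Golgi network and endosomes, lay close within each group, with 6214, 6129.6 and 6118 against 6439, 6421 and 6482. Its 3 mice gave 0.051, 0.067 and 0.083, yet the fitted 0.067 ± 0.069 did not pass (unadjusted p = 0.388, limma). Rab17, known from recycling in epithelial cells, read 764, 829 and 679 against 689, 691 and 617, lower in every mouse with overlap between the groups (-0.18 ± 0.074, unadjusted p = 0.0740, limma). Rab22a, a Rab of early and recycling endosomes, gave 3004, 2461 and 3274 against 3340.1, 2969 and 3295 (0.14 ± 0.087). Of 7 tested genes 4 lay above 0 and none had an unadjusted p below 0.05.

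Recycling endosome Rabs return receptors to the surface. Rab11a, the central Rab of slow recycling, read 2774, 3194 and 2874 against 2966, 2713 and 2706 (-0.075 ± 0.097). The groups overlapped and the mice went both ways. Rab11b read 7153, 7262 and 7329.5 against 7592, 7705 and 7373 (0.060 ± 0.071), with no overlap. Rab35, which serves fast recycling from the plasma membrane, read 3143, 3908 and 3140.3 against 2939, 3177 and 3266 (-0.11 ± 0.10). The restored-labelled array of mouse 279 was the highest of the 6 for Rab11a and Rab35. Of 6 tested genes 2 lay above 0.

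Because the labelled difference concerns an ETS factor, the promoter sequences of the family were searched for the high-affinity ETS letters CCGGAAGT on either strand, in the 250 bases before the annotated start (RefSeq, GRCm38.p6). The table holds 60 windows for 48 of the 59 genes. The letters occurred in 2 of the 60 (3.33%), beside 2.88% of all 32851 windows, and the shorter core CCGGAA, which overlaps them, in 8 (13.3%) beside 12% of all. The matching genes were Rab11a and Rab24, which are shown since the groups overlapped for the first, except with centred arrays, and not for the second. Both stretches end at the last base before the start, on the minus strand, 5′ to 3′, with the matched letters in capitals.
Rab11a, chr9:64737757-64737829: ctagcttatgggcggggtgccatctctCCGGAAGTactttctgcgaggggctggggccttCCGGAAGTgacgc
Rab24, chr13:55321981-55322022: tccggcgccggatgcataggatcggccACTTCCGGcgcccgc
Rab11a carries 2 copies, beginning 46 and 13 bases before the start, and Rab24 carries 1 in the opposite orientation, beginning 15 bases before it. A match of letters does not show binding, and binding was not measured here.

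Rab24, an unusual Rab tied to autophagy, was the late endosome and lysosome gene with the smallest unadjusted p. Its intensity was 1015, 1373 and 1065.5 in the restored-labelled and 987, 1004 and 879.9 in the knockdown-labelled cells. The groups did not overlap, and mouse 278 contributed little, since the mice gave -0.041, -0.45 and -0.27. The difference was -0.25 ± 0.11 (unadjusted p = 0.0802, adjusted p = 0.771, limma) and became -0.12 on the 5 arrays that lacked restored-labelled mouse 279, the highest of the 6. A second Rab24 probe set gave -0.28 ± 0.13. Rab7, which directs late endosomes to lysosomes, read 8752, 8822 and 8658 against 9181, 9289.7 and 8892 (0.061 ± 0.069). Rab12, which takes transferrin receptor to lysosomes, read 462, 469 and 450.5 against 492, 488 and 431 (0.027 ± 0.076). Of 5 tested genes 2 lay above 0.

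Secretory Rabs differed by -0.25 to 0.34. Of 10 tested genes 5 lay above 0 and none had an unadjusted p below 0.05. Rab10 and Rab8b serve transport to the plasma membrane. Rab10 read 4277, 4007 and 4242 against 4546, 4585 and 4508 (0.12 ± 0.073), with no overlap, and Rab8b read 6492.5, 5906 and 6604 against 7277, 7393 and 6519 (0.16 ± 0.098), with overlap. Rab3a, a Rab of regulated exocytosis, gave 774, 918 and 917 against 733, 675.5 and 927 (-0.17 ± 0.12).

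The pair RAB27A and RAB27B docks granules of hematopoietic cells at the plasma membrane. Rab27a read 1772, 872 and 1930.2 in the restored-labelled and 3311, 1506 and 1210.0 in the knockdown-labelled cells. The knockdown-labelled array was higher in mice 278 and 279 and lower in mouse 281 (0.90, 0.78 and -0.67). Rab27b read 556, 424 and 826 against 739.9, 526 and 350.5, and its mice gave 0.40, 0.30 and -1.20. The fitted differences of 0.34 ± 0.36 and -0.17 ± 0.37 therefore have intervals from -0.68 to 1.35 and from -1.21 to 0.88, which allow a 2-fold difference in the case of both genes. Without mouse 281 the differences were 0.84 for Rab27a and 0.35 for Rab27b, each with an unadjusted p below 0.05 there and an adjusted p of 0.628 (limma), while Rab27a gave -0.021 on the 5 arrays that lacked restored-labelled mouse 279. The other Rab27b probe set above the filter did not share this pattern, with 0.41, -1.10 and -0.67 in mice 278, 279 and 281. The other Rab27a probe set above the filter gave 0.28, 0.15 and -0.82, a fitted difference of -0.13 ± 0.26.

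Lysosome-related organelles such as platelet dense granules and melanosomes depend on RAB32 and RAB38. Rab32 read 3874, 3075 and 3968 against 3920.0, 3895 and 3279.5 (0.028 ± 0.14), and Rab38 4275, 4644 and 4212 against 4559, 4166 and 4492 (0.0097 ± 0.091). Neither was ordered by group. Rab29, their relative that recruits the kinase LRRK2, read 1549, 1641 and 1544 against 1512, 1328 and 1378. It was lower in each mouse without overlap (-0.17 ± 0.088, unadjusted p = 0.133, limma).

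Among Rabs of other or less settled roles, Rab40c, which carries a SOCS box and joins a ubiquitin ligase, had the smallest unadjusted p. It read 704, 1262 and 811 in the restored-labelled and 645, 854 and 605 in the knockdown-labelled cells. It was lower in each mouse (-0.12, -0.55 and -0.41), although the groups overlapped, with mouse 279 high in both populations. The difference was -0.36 ± 0.11, or 0.777-fold (unadjusted p = 0.0328, adjusted p = 0.771, limma). With no replicate block the unadjusted p was 0.187 (limma). The 5 arrays that lacked restored-labelled mouse 279 gave -0.12, and leaving out a whole mouse gave -0.48 to -0.27 with an unadjusted p of 0.0415 to 0.105 (limma). For Rab17, Rab29 and Rab43, as for Rab24 and Rab40c, the restored-labelled array of mouse 279 was the highest of the 6. The part of that array's 3' over 5' ratio in these genes was not tested. Rab28, a farnesylated Rab of cilia, read 2015, 1926 and 2176 against 1881, 1903 and 1668, without overlap (-0.17 ± 0.10). Rab23, an inhibitor of Hedgehog signalling, read 249, 217 and 260.4 against 350.5, 227 and 275 (0.20 ± 0.12), and mouse 278 gave most of it.

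**Figure D2:**
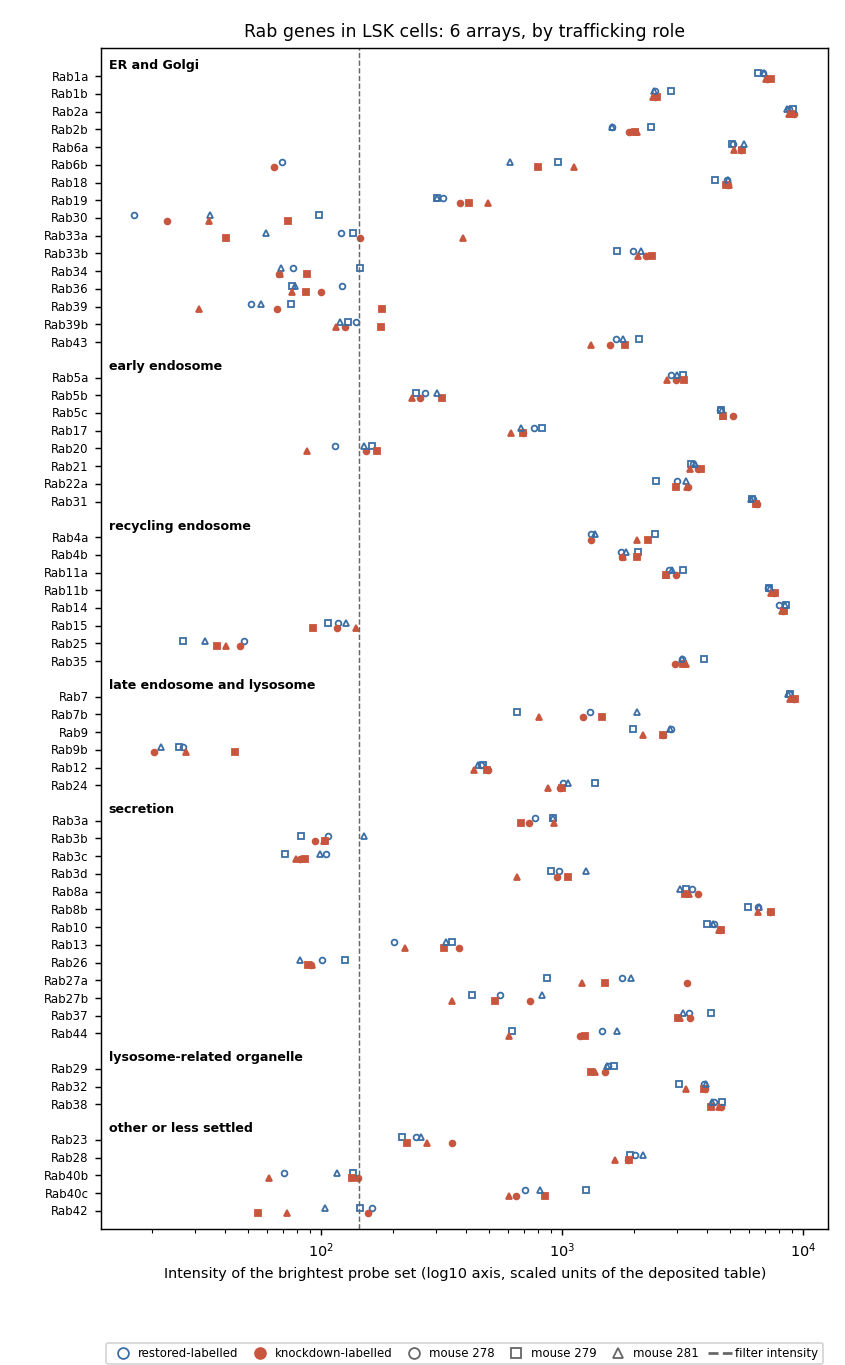
Intensity of the brightest probe set of all 59 Rab genes on the 6 arrays, on a log10 axis, by trafficking role; open blue symbols are restored-labelled and filled red symbols knockdown-labelled arrays, symbol shape is the mouse and the dashed line the filter intensity of 143. The 44 tested genes lie to the right of the line, except for Rab6b in mouse 278.

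Some members differed more between arrays than between the populations. The log2 values of 4 of the 44 Rab genes had an SD over the 6 arrays above 0.5, a limit chosen after the values were seen, beside 3.94% of all genes tested. They were Rab6b, Rab27a, Rab44 and Rab7b. Rab6b, the close relative of the Golgi Rab RAB6A, was below the filter in both populations of mouse 278 (69.1 and 63.9). It read 967 and 797 in mouse 279 and 609.6 and 1119.7 in mouse 281, so the highest array was 17.5 times the lowest. Rab6a itself, with 5150.4, 5100.2 and 5713 against 5539, 5610.0 and 5183, showed no such gap. The only other Rab6b probe set above the filter did not show it, with 177 and 259.5 in mouse 278, 259 and 273 in mouse 279, and 194 and 206 in mouse 281. A probe set below the filter was lowest in mouse 278, with 42.6 and 38.6 there and 117 to 251 in the others.

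Rab4a, a Rab of fast recycling, also separated the mice. It read 1321 and 1316 in mouse 278, 2444 and 2272 in mouse 279, and 1369 and 2044 in mouse 281, and its difference between the populations was 0.15 ± 0.16. A second probe set read 763 and 717, 1584 and 1661, and 951 and 1405 in the same order. The erythroid regulator gene Klf1 read 984 and 757 in mouse 278, 2838 and 3437 in mouse 279, and 1568 and 1841 in mouse 281. Epor and Hbb-b2 were also lowest in mouse 278 and highest in mouse 279. Hba-a2 did not follow this order, with 4788 and 4849 in mouse 278 and 3534 and 4608 in mouse 279. Car2 varied little, from 9830 to 11528 over the 6 arrays. The summed intensity of 7 erythroid markers was 16338 and 16677 in mouse 278, and 18173 to 22284 on the other arrays, with Hba-a1 and Alas2 below the filter throughout. The part of erythroid cells in Rab6b and Rab4a was not tested.

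Rab7b and Rab44 followed another order. Rab7b, a Rab of lysosomes and the trans-Golgi network known from myeloid cells, read 1316, 649 and 2056 in the restored-labelled and 1223, 1468 and 804 in the knockdown-labelled cells. Rab44, a large Rab known from mast cell granules, read 1466, 619 and 1690.1 against 1189, 1249 and 606. In mouse 279 the knockdown-labelled array was the higher one, in mouse 281 the lower one, and mouse 278 lay between, and the fitted differences were -0.095 ± 0.52 and -0.25 ± 0.51. Without mouse 281 they were 0.53 and 0.35. Summed macrophage markers (9 genes) read 5603, 4732 and 6316 against 4170.4, 5280.1 and 3345, with C1qa and Marco below the filter throughout. All 6 tested were lower, 3 at an unadjusted p below 0.05 in limma. Of these 3, Aif1 passed the filter only through the restored-labelled arrays (292, 210 and 252 against 117, 136 and 105), which fixed its direction. Summed neutrophil markers (8 genes) read 23675, 16669 and 44456 against 24165, 49275 and 28627. Summed mast cell and basophil markers (8 genes) read 6819, 5620.5 and 5098 against 5390.0, 5030.2 and 5148, with Cma1, Tpsb2 and Mcpt4 below the filter throughout. The part of these cells in Rab7b and Rab44 was not tested.

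**Figure D3:**
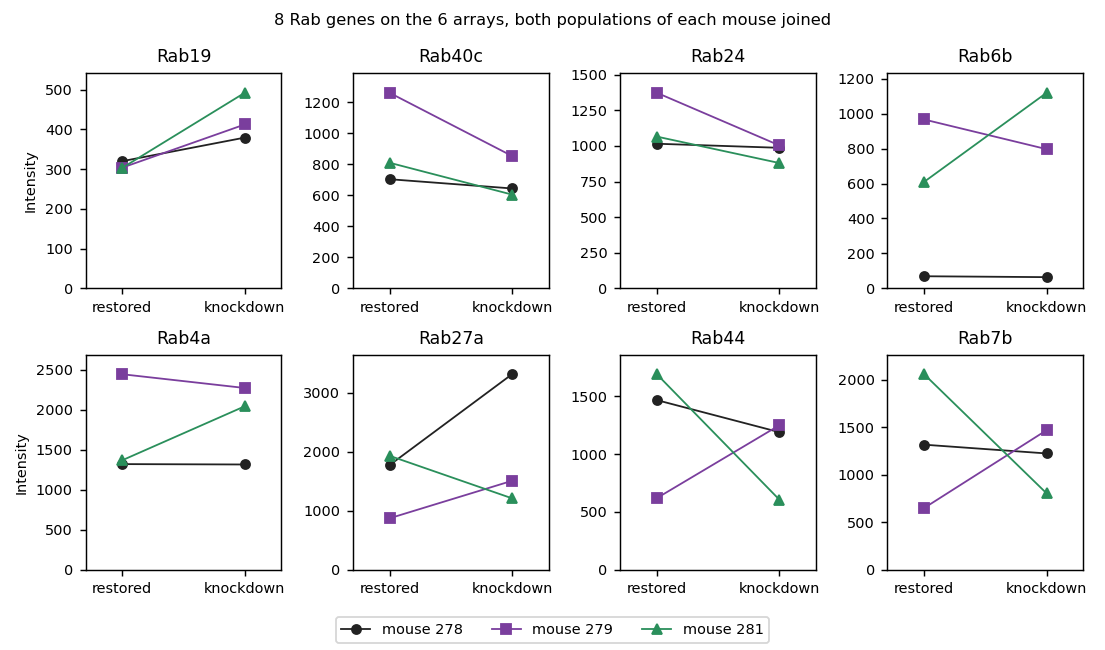
Intensity of 8 Rab genes in the restored-labelled and knockdown-labelled cells, with the 2 arrays of each mouse joined; axes start at 0. Rab19 is higher and Rab40c and Rab24 are lower in the knockdown-labelled cells of every mouse, Rab6b and Rab4a separate mouse 278 from mouse 279, and Rab27a, Rab44 and Rab7b cross.

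Another 15 Rab genes lay below the filter and were not tested, and 8 of these were below it on every array. Their single values ran from 16.9 to 389. Rab33a, known from lymphocytes and neurons, was the brightest of them on any array, with 122, 136 and 59.0 in the restored-labelled and 146, 40.6 and 389 in the knockdown-labelled cells. Rab42 read 163, 145 and 104 against 157, 54.7 and 72.2, Rab39 51.1, 75.5 and 56.5 against 66.1, 180.1 and 31.3, and Rab34 76.4, 145 and 68.7 against 66.9, 88.1 and 67.5. The groups overlapped for all 4, although Rab42 and Rab34 were lower in the knockdown-labelled array of each mouse. The epithelial gene Rab25 and the neuronal gene Rab3c stayed below the filter on all 6 arrays. The genes nearest the filter were Rab20 below it, with a mean of 137, and Rab23 above it, with a mean of 260.1.

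The probe table lists 132 probe sets for the 59 genes, 90 of them above the filter. Of 28 tested genes with several probe sets above the filter, 19 had differences of one sign and 9 of both signs. The 3 probe sets of Rab1a, picked out after their values were seen, shared their sign and differed in size. The dimmest read 157, 122 and 213 in the restored-labelled and 584, 330.0 and 465 in the knockdown-labelled cells, without overlap. This gave a difference of 1.40 ± 0.17 (unadjusted p = 0.00123, adjusted p = 0.793 in limma over all probe sets above the filter), while the other 2 Rab1a probe sets gave 0.086 and 0.064. Which part of the transcript it reads was not analysed here. A Rab3d probe set that is not the brightest was lower in every mouse (-0.30 ± 0.084, unadjusted p = 0.0229, adjusted p = 0.793, limma). The brightest one gave 973, 901 and 1263 against 959, 1064 and 654, with mouse 281 far lower, mouse 278 nearly level and mouse 279 higher (-0.24 ± 0.26).

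No gene of the proteins that operate the Rab cycle passed the test either. Of 126 listed genes 107 were tested, and 0 passed the adjusted threshold (limma, smallest adjusted p = 0.771). At an unadjusted p below 0.05 stood 5 higher and 4 lower, beside 3.96% and 1.88% of all genes. The median difference was 0.015.

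Anchoring and recycling genes (7 tested) and GAPs (34 tested) held none of these 9. Chm and Chml encode the escort proteins that present new Rabs for lipid attachment. Chm read 1546, 1149 and 1679.8 against 1736, 1827 and 1769 (0.30 ± 0.15), without overlap. The low restored-labelled array of mouse 279 carried much of this, since the mice gave 0.17, 0.66 and 0.074, and the difference was 0.14 on the 5 arrays that lacked it and 0.12 without that mouse. Chml read 1408, 1191 and 1418 against 1525, 1399 and 1666 (0.19 ± 0.074), with overlap. Rabggta, the alpha subunit of the transferase, read 726, 962 and 718 against 756, 648 and 561 (-0.28 ± 0.15), with the restored-labelled array of mouse 279 the highest. Usp6nl, a GAP that acts on RAB5, read 5335, 5405 and 5253 against 6235, 6074 and 5975, also without overlap (0.19 ± 0.070, unadjusted p = 0.0517, limma). Tbc1d4, a GAP of RAB10, read 1112, 1108 and 1089 against 1337, 1167 and 1608 (0.30 ± 0.12), also without overlap. Tbc1d2, a GAP of RAB7, read 171, 221 and 201 against 159, 189 and 155 (-0.22 ± 0.085), lower in each mouse with overlap.

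Among 34 tested GEF genes 2 were higher and 2 lower at an unadjusted p below 0.05. Ric1, a subunit of the RAB6 exchange factor, read 1356, 1276 and 1518 in the restored-labelled and 1820.3, 1802 and 1743 in the knockdown-labelled cells. The groups did not overlap (0.37 ± 0.093, unadjusted p = 0.0169, adjusted p = 0.771, limma). Hps1, a subunit of the exchange factor for RAB32 and RAB38, was lower in each mouse, with 832, 1188 and 913 against 724, 900.3 and 677 (-0.34 ± 0.085). Dennd2d read 1119, 1244 and 1043 against 966, 993 and 882 (-0.26 ± 0.073), without overlap. The other GEF gene was Dennd1b, with 2432, 2485 and 2494 against 2786, 3006.5 and 2783 (0.21 ± 0.073), also without overlap.

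Of 32 tested effector genes 3 were higher and 2 lower at an unadjusted p below 0.05. Mical1, an actin-oxidizing enzyme that binds several Rabs, read 1759, 1904 and 1752 in the restored-labelled and 1207, 1520.0 and 1257 in the knockdown-labelled cells. Its groups did not overlap (-0.44 ± 0.082, unadjusted p = 0.00588, adjusted p = 0.771, limma). Myo5a, the myosin motor that carries RAB27A-bound granules, read 2338, 1683 and 2437.5 against 3068, 2214 and 2939, higher in each mouse (0.35 ± 0.075). Rab11fip1, an adaptor of RAB11 on recycling endosomes, read 299, 107 and 361 against 443, 329 and 611 (0.92 ± 0.22), and its lowest array, at 107, lay below the filter. The other 2 were Rab11fip4, of the same family, with 249, 192 and 258 against 296, 229 and 299 (0.23 ± 0.069), and Sytl1, which binds RAB27A, with 778, 847 and 707 against 703, 617 and 596 (-0.28 ± 0.094, no overlap).

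Most of the unadjusted calls of regulator genes depended on the setting. With no replicate block the unadjusted p was 0.0919 for Hps1, 0.116 for Myo5a, 0.0921 for Rab11fip1 and 0.188 for Rab11fip4 (limma), and that of Usp6nl was 0.0176. On the 5 arrays that lacked restored-labelled mouse 279 the differences were -0.19 for Hps1, 0.18 for Myo5a, 0.43 for Rab11fip1 and 0.10 for Rab11fip4. Averaging the probe sets of a gene gave -0.19 for Hps1, -0.12 for Dennd2d and 0.14 for Myo5a. Mical1 stayed below an unadjusted p of 0.05 in 15 of 16 alternatives, with 0.0714 without mouse 278. Ric1 did so in 13 of 16, Rab11fip1 in 12 of 15, Myo5a in 10 of 16, Hps1 and Dennd2d in 9 of 16, Sytl1 in 9 of 15, Dennd1b in 8 of 16 and Rab11fip4 in 4 of 15. Leaving out any one mouse took Hps1, Dennd1b, Dennd2d, Sytl1 and Rab11fip4 above it.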

How the data were processed

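RNA of YFP-positive and YFP-negative LSK cells was amplified and biotin-labelled by NuGEN Ovation V2 chemistry, per the labels' protocols. The deposited table holds linear intensities of 45101 probe sets with Affymetrix identifiers, summarized and scaled by the authors in a way not given in the sources used here. An array value has no count behind it, and precision is limited by how many arrays there are. The 64 control probe sets were left out, and 34945 of the rest carry 1 symbol, 932 several and 9160 none in the probe table. Values were taken to log2(intensity + 16), which understates differences of dim genes. Probe sets at or above the median of the mean log2 value (an intensity of 143) were kept, and the brightest probe set stood for its gene. Linear means chose the same probe set for all 59 Rab genes.

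Differences came from a linear model with terms for mouse and label (limma 3.58.1, R 4.3.3, moderated by eBayes). Benjamini-Hochberg adjustment covered all 10824 genes. The script was tested on simulated data. The pairing comes from the labels; same-mouse correlations of deviations from the group means were 0.44, -0.17 and -0.29. Named genes were those below an unadjusted p of 0.05, the 3 smallest p of each role or regulator list, 7 fixed genes and the 4 untested genes with the largest difference; others were chosen after their values were seen. The members, role groups and lists were chosen with earlier results of these data known. Alternatives were the block, normalization, filter, probe set, variance model, array weights, added value and leaving out each mouse or 1 array. Promoter letters came from RefSeq (GRCm38.p6). Figures were drawn with matplotlib 3.10.9.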

Additional observations from a re-analysis of the deposited data

How the results depend on the processing

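Under all alternatives run, 0 genes had an adjusted p below 0.05 in limma. The Rab genes below an unadjusted p of 0.05, Rab19 and Rab40c among 5.84% of all genes, became 1 with no replicate block (Rab19; 5.86%), with the mouse as a random block (Rab19; 5.86%), with the upper 30% of probe sets (Rab40c; 5.81%) and with trend and robust settings (Rab19; 5.94%). Centring gave 5 (Rab17, Rab24, Rab29, Rab40c and Rab43, all lower; 8.97%), quantile normalization 3 (Rab17, Rab24 and Rab40c; 6.55%), the mean over probe sets 3 (Rab1a, Rab19 and Rab40c; 5.67%) and the 5 arrays that lacked restored-labelled mouse 279, 2 (Rab2b and Rab19; 5.61%). Leaving out a mouse gave 1 to 2: Rab19 and Rab40c without 278 (2.38%), Rab2b without 279 (6.03%), Rab27a and Rab27b without 281 (6.68%). Centring moved the median Rab difference to -0.083. Rab genes without overlap went from 10 (15.2% of all genes) to 6 with centring (16.6%), 7 after quantile normalization (16.1%) and 13 on the 5 arrays (23.8%). These alternatives were chosen after seeing the data, and leaving out an array cannot lower such a count. Erg was -0.083 with centring, -0.045 as the mean over probe sets, and -0.025 to 0.073 when each mouse was left out. Over 34 Rab genes and these alternatives, 502 differences kept their direction and 35 reversed, and for 15 regulator genes 235 kept it. No gene passed the adjusted threshold, so its side could not change. The 15 regulator genes and many of the 34 were picked for small unadjusted p-values in these same arrays (limma). That favours a kept direction, so these counts are no independent support. With centring Rab1a (-0.020), Rab5c (-0.036), Rab6a (-0.073), Rab7 (-0.046), Rab11b (-0.047), Rab12 (-0.080), Rab13 (-0.041), Rab31 (-0.040), Rab32 (-0.079) and Rab38 (-0.097) turned negative. Quantile normalization turned Rab12 (-0.061) and Rab13 (-0.015), array weights Rab6a (-0.0036), Rab13 (-0.043) and Rab32 (-0.043), and the mean over probe sets Rab11a (0.034). The 5 arrays turned Rab1b (0.0092), Rab5a (0.023), Rab27a (-0.021) and Rab32 (-0.089). When each mouse was left out, differences ran from -0.064 to 0.037 for Rab5a, -0.055 to 0.28 for Rab4a, -0.018 to 0.12 for Rab6a, -0.18 to 0.39 for Rab6b, -0.72 to 0.53 for Rab7b, -0.16 to 0.0047 for Rab11a, -0.0030 to 0.071 for Rab12, -0.32 to 0.37 for Rab13, -0.45 to 0.35 for Rab27b, -0.13 to 0.18 for Rab32, -0.032 to 0.093 for Rab38, -0.48 to 0.11 for Rab3d and -0.88 to 0.35 for Rab44. The causes were not tested. Dim probe sets near the filter are limited by signal over background.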

Other observations

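Rab13, a Rab of cell junctions near the filter, read 202, 351 and 331 in the restored-labelled and 375, 325 and 223 in the knockdown-labelled cells of mice 278, 279 and 281, a difference of 0.066 ± 0.30. A second Rab7b probe set read 309, 139 and 328 against 160.4, 279.6 and 122, higher in the knockdown-labelled cells of mouse 279 and lower in mouse 281 like the brightest one. These values were picked out after they were seen.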
